A study of Mus musculus with 2 samples.

Results

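The interleukin-7 and interleukin-15 survival axis is described here through 6 genes, chosen by name among the 32285 genes of each matrix: the interleukin-7 receptor chain Il7r, the ligand Il15 and its private receptor chain Il15ra, and the BCL2 family members Bcl2, Mcl1 and Bcl2l11. All 6 were found in both matrices. They were measured by droplet single-cell RNA sequencing (10x Genomics) in leukocytes of hand-picked pancreatic islets, sorted as live cells positive for CD45, a leukocyte surface protein, and negative for CD31, an endothelial one. The islets came from females aged 12 weeks of the NOD strain, which develops autoimmune diabetes, and of NOD.Cxcl16-/-, the same strain labelled as lacking the chemokine gene Cxcl16. Each group has 1 library, replicate 1, and the labels used here do not say how many animals entered it. There is therefore no replicate check, no test between the groups, and every interval below is an exact 95% interval that covers counting error only.

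Interleukin-7 is made mainly by stromal cells and binds a receptor built from the chain encoded by Il7r and the common gamma chain encoded by Il2rg. Interleukin-15 is held on the surface of myeloid cells by the chain encoded by Il15ra and shown from there to neighbouring cells that carry the chains encoded by Il2rb and Il2rg. Both receptors signal through the kinases JAK1 and JAK3 and the factor STAT5, and in lymphocytes both are known for keeping cells alive through proteins of the BCL2 family. BCL2 and MCL1 hold the death effectors BAX and BAK in check, and BIM, the product of Bcl2l11, binds and neutralises both protectors.

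The WT NOD library held 13859 barcodes with 93553185 UMIs (unique molecular identifiers, each standing for 1 captured transcript), and the library labelled NOD.Cxcl16-/- held 10554 barcodes with 98681133 UMIs. After filtering, 10715 and 9323 cells were kept, at medians of 4160 and 4999 UMIs. Of all barcodes, 45 occurred in both libraries, 31 of them among the kept cells. Transcripts of Cxcl16 were present at 103 CPM (UMIs of a gene per 1000000 UMIs) over all barcodes of the WT NOD library and at 102 CPM over those of the other, so the counts do not separate the libraries by the targeted gene. Which exons the allele removes is not given in the sources used here, and the second library is called by its label throughout. Cells were placed in 28 marker gates, sets of cells defined by UMIs of lineage genes that include none of the 6 members. Barcodes with markers of more than 1 lineage (767 and 744 cells, median 13283 and 22400.5 UMIs) were kept apart from the gates. In a joint clustering of both libraries, 2 unnamed clusters held 778 and 861 cells of the WT NOD library and 73 and 84 of the other; 90 and 66 of their cells fell in CD8 gates. Of the T cells, 2927 and 1791 lacked the Cd4 or Cd8 UMIs needed for a finer gate. Levels are CPM of the gate total. A gate is called apart from another only where its lower Poisson bound lay above the other's upper bound in both libraries.

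The locus of Il7r (ENSMUSG00000003882) lies on the minus strand of chr15:9505788-9530176 in the mouse build GRCm38, with 8 exons in the GENCODE M21 annotation. Its promoter is shown because ETS factors are known activators of the gene in T cells. The RefSeq window for GRCm38.p6 covers 300 bases, from 250 before to 50 after the start, on the minus strand at chr15:9529827-9530126, printed 5′ to 3′ with the letters that match the ETS core AGGAAGT on the reverse strand (ACTTCCT) in capitals.
Il7r: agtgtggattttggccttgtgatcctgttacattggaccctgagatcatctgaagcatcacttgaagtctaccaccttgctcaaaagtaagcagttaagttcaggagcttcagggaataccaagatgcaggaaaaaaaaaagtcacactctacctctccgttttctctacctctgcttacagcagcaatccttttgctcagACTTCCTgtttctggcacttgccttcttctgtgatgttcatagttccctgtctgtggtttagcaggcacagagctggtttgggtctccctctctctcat
The match begins 49 bases before the start. Searched on both strands, the same letters occurred in 9.35% of 32851 RefSeq promoter windows of this length, so the match describes the window and is not shown to be a site.

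Il7r was highest in 2 lymphocyte gates outside the alpha-beta T cells. Group 2 innate lymphoid cells (ILC2, tissue-resident producers of type 2 cytokines) had 950 CPM in the WT NOD library and 907 CPM in the library labelled NOD.Cxcl16-/-, from 22 and 58 cells. Gamma-delta T cells followed at 626 and 671 CPM from 191 and 164 cells. The ILC2 gate was apart from all 27 other gates, and the gamma-delta gate was apart from the 26 below it. After each cell was thinned to 2000 UMIs, 81.8% and 84.2% of ILC2 and 55.2% and 60% of gamma-delta T cells kept an Il7r UMI, against 90.9% and 89.7%, and 66% and 76.2%, before thinning. In B cells, which downregulate the receptor as they mature, the thinned shares were 0.982% and 0.596% and the unthinned ones 1.82% and 1.31%. The B gate is the background here, at median depths of 4513 and 4616 UMIs that are close to those of the ILC2 gate (4191.5 and 4296.5) and the gamma-delta gate (4499 and 4517).

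Among alpha-beta T cells, Il7r was highest in the unmarked, naive-like, Th1-like and Ccl5-high gates and lowest in the cycling ones. CD4 cells with no further marker had 442 and 547 CPM, naive-like CD4 cells (gated on naive T-cell markers, among them Ccr7, Lef1 and Dapl1) had 376 and 458 CPM, and naive-like CD8 cells had 275 and 346 CPM. Ccl5-high CD8 cells, a memory-like gate, had 277 and 395 CPM, and Th1-like CD4 cells (Cxcr3, Tbx21 or Ifng) had 321 and 301 CPM. CD8 cells with no further marker had 309 and 343 CPM. These gates were not apart from their neighbours in the order, except that CD4 cells with no further marker were apart below the gamma-delta gate. The gate of CD4 cells with Tnfsf8 or Nrn1, genes linked to anergy, had 209 and 252 CPM and was apart from the gates next to it on both sides.

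Several T gates were lower still. CD4 cells with Il21 or Cxcr5, markers of follicular-type help, had 102 and 144 CPM, CD8 cells with Xcl1 or Cd160 had 110 and 124 CPM, and regulatory T cells (Foxp3) had 103 and 83.7 CPM. Natural killer (NK) cells stood among them at 126 and 77.1 CPM. CD8 cells with Entpd1 or Havcr2, markers of chronic stimulation, had 41.7 and 81.7 CPM. Cycling cells, with UMIs of Mki67 or Top2a, were lowest among T cells at 27.1 and 25 CPM in CD8 and 37.9 and 45.3 CPM in CD4. Among CD8 gates the naive-like and Ccl5-high ones were each apart above 18 gates, and the cycling gate was apart above 2. The cycling gates also had the deepest T cells, with medians of 14670 and 16328 UMIs in CD8, and the part of this depth in their low CPM was not tested.

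Plasmacytoid dendritic cells (pDC), the main producers of type I interferon, were the myeloid-side exception. They had 470 and 509 CPM of Il7r, from 48 and 36 cells, apart above 22 gates and not apart from CD4 cells with no further marker. After thinning, 66% and 54.3% of pDC kept a UMI, against 93.8% and 97.2% before. The summed T markers (Cd3d, Cd3e, Cd3g, Trac, Trbc1, Trbc2) reached only 37.8 and 32.5 CPM in this gate, against 4683 and 4871 CPM in gamma-delta T cells, and no more than the 65.5 and 47 CPM of B cells, whose Il7r was near 0. Other dendritic and macrophage gates lay between 20.3 and 75 CPM, and the 8 and 9 monocytes with Ly6c2 held no Il7r UMI. A count of 0 over those few cells allows up to 37.5 and 31.6 CPM if taken as a limit of 3 UMIs, and the exact upper bounds are 46.1 and 38.9 CPM.

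**Figure D1:**
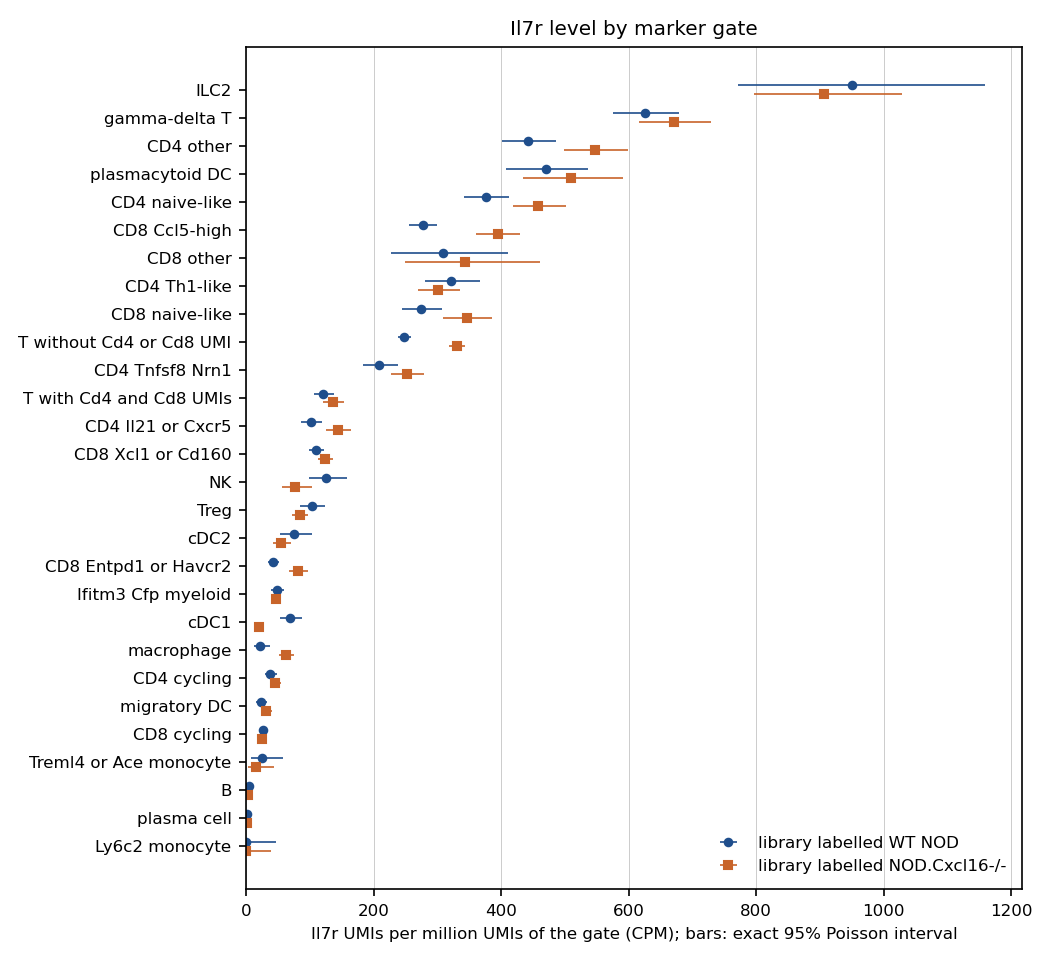
Il7r level as CPM of the gate total, on a linear axis, for 28 marker gates in order of their mean level; circles are the WT NOD library, squares the library labelled NOD.Cxcl16-/-, and bars exact 95% Poisson intervals. ILC2 (950 and 907 CPM) and gamma-delta T cells (626 and 671 CPM) stand apart at the top, and B cells (4.52 and 3.46 CPM) lie near 0.

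T cells held most of the receptor transcripts. All T gates together held 74.8% of the 8527 Il7r UMIs of kept cells in the WT NOD library and 71.8% of 9919 in the other. The same gates held 52.7% and 40.2% of the UMIs of all genes. The myeloid gates held 5.24% and 5.74%, and B cells, the largest single class with a lineage of their own, held 0.481% and 0.423%.

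Il15 (ENSMUSG00000031712) lies on the minus strand of chr8:82331632-82403222 with 8 exons. It was a low transcript everywhere, with 285 and 451 UMIs over all kept cells, and among gates with at least 30 cells in both libraries its levels were highest in dendritic cells of the migratory mature type (Ccr7 with Fscn1, Ccl22, Cacnb3 or Il4i1), which carry antigen to lymphoid tissue. In the WT NOD library these had 69 UMIs, or 60 CPM (46.7 to 75.9). They had 45 UMIs, or 28 CPM (20.4 to 37.5), in the other library. The gate was apart above 21 of 27 others. Macrophages (C1qa, C1qb or C1qc with Csf1r, Adgre1 or Cd68) followed with 19.4 and 23 CPM (13 and 40 UMIs), and type 1 conventional dendritic cells (cDC1), which cross-present antigen to CD8 T cells, had 10.4 and 19.1 CPM (10 and 30 UMIs). The migratory gate was not apart from the macrophage gate, since the intervals overlapped in the library labelled NOD.Cxcl16-/-.

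The remaining sources were thin. Monocytes with Ly6c2 had 50 and 31.6 CPM, but from 4 and 3 UMIs, and ILC2 had 29.4 and 14.9 CPM from 3 and 4 UMIs. Conventional dendritic cells of type 2 (cDC2) had 6.08 and 6.35 CPM, plasma cells 3.17 and 6.87 CPM, and myeloid cells with Ifitm3 and Cfp 2.76 and 0.969 CPM. T cells had next to none: 1 and 3 UMIs in all CD8 T cells (0.061 and 0.248 CPM) and 4 and 3 UMIs in CD4 T cells other than regulatory ones (0.538 and 0.352 CPM). After thinning, 8.14% and 4.72% of migratory dendritic cells and 3.77% and 6.87% of macrophages had an Il15 UMI, against 0% and 0.0497% of B cells. Before thinning these shares were 35.6% and 24%, 20.4% and 20.3%, and 0.114% and 0.145%. Migratory dendritic cells (12154 and 11601) and macrophages (12645 and 12223) had higher median UMI counts than B cells.

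Counted by UMIs, migratory dendritic cells gave 24.2% and 9.98% of all Il15 transcripts from 0.812% and 1.38% of the cells. Macrophages gave 4.56% and 8.87% and cDC1 3.51% and 6.65%, and the 8 myeloid gates together gave 37.2% and 28.8%. The largest single share, 46% and 56.8%, lay in barcodes with markers of more than 1 lineage. In those, Il15 stood at 11.1 and 12.2 CPM where C1q transcripts were present (135 and 360 barcodes) and at 8.71 and 11.1 CPM where they were not (632 and 384 barcodes). These barcodes cannot be given to 1 cell type, so the ligand's main cellular source is known only for the part that fell into gates.

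Il15ra (ENSMUSG00000023206), which has 7 exons on the plus strand of chr2:11705290-11734317, has a pair of start regions in RefSeq. The window of the second start, chr2:11705462-11705761 on the plus strand, is shown because interferon regulatory factors are known activators of both Il15 and Il15ra, with the letters that match AANNGAAA in capitals.
Il15ra: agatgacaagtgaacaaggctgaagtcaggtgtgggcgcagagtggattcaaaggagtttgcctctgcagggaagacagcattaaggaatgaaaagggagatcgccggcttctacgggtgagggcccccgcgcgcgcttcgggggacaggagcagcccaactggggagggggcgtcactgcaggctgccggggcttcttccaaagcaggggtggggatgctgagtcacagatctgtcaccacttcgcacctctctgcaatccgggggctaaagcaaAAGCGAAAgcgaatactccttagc
The match, AAGCGAAA, begins 26 bases after the start, and the first window holds a match on the reverse strand (TTTCTATT) 187 bases before its start. The letters occurred in 23.9% of all windows. Of the 6 members, 5 had a RefSeq window.

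The level of Il15ra was again highest in migratory dendritic cells, at 46.9 CPM (54 UMIs) and 40.4 CPM (65 UMIs), apart above 22 gates. Macrophages had 26.9 and 17.3 CPM (18 and 30 UMIs), cDC2 14.2 and 10.9 CPM, and cDC1 11.5 and 12.1 CPM. The 2 conventional dendritic gates were not apart from each other. The ligand and its presenting chain had the same top gate among those with at least 30 cells in both libraries. Across the 28 gates the profiles of Il15 and Il15ra had a Pearson correlation of 0.64 on log2(CPM + 1), a description over gates that share 2 libraries and their depth.

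Il15ra was more widely spread than its ligand. Ccl5-high CD8 cells had 18.6 and 13 CPM, regulatory T cells 13.5 and 10.7 CPM, and CD8 cells with Xcl1 or Cd160 12.1 and 9.74 CPM. NK cells, which depend on interleukin-15, had 6.82 and 11 CPM from 4 and 6 UMIs. T gates held 47.2% and 36% of the 705 and 870 Il15ra UMIs, below their 52.7% and 40.2% of the UMIs of all genes. Migratory dendritic cells held 7.66% and 7.47% of Il15ra UMIs, from 1.64% and 1.93% of the UMIs of all genes. B cells had 4.63 and 1.81 CPM and pDC 2.23 and 2.96 CPM, 1 UMI in each library. Outside the migratory dendritic cells, few gates were apart from any other, the most being 3 gates for macrophages.

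Over all myeloid gates, cells with an Il15 UMI more often had an Il15ra UMI than those without. Among myeloid cells thinned to 5000 UMIs, 8 of 33 cells with an Il15 UMI in the WT NOD library also had an Il15ra UMI (24.2%, 11.1 to 42.3), against 21 of 389 without (5.4%, 3.37 to 8.13). In the library labelled NOD.Cxcl16-/- the shares were 27.5% (11 of 40, 14.6 to 43.9) and 5.53% (36 of 651, 3.9 to 7.57). The intervals did not overlap in either library. Migratory dendritic cells, high in both genes, gave 20 and 16 of the cells with an Il15 UMI. Within them the shares were 25% (5 of 20) against 9.38% (6 of 64) and 43.8% (7 of 16) against 13.2% (14 of 106), with intervals of 8.66 to 49.1 and 3.52 to 19.3 that overlapped in the first library and of 19.8 to 70.1 and 7.41 to 21.2 that overlapped in the second. In macrophages the shares were 50% (2 of 4) against 6.82% (3 of 44) in the WT NOD library, but 7.69% both with an Il15 UMI (1 of 13) and without (8 of 104) in the other, so the pooled difference was not seen in that gate there.

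**Figure D2:**
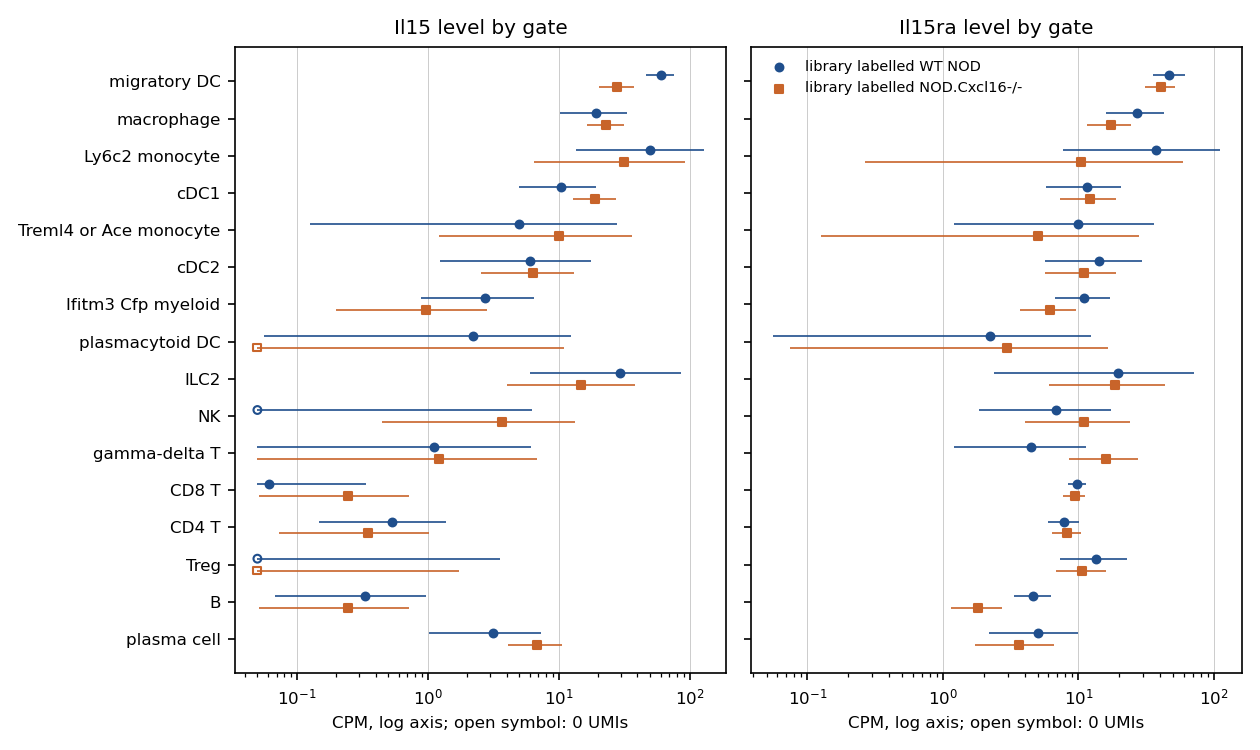
Il15 (left) and Il15ra (right) levels as CPM of the gate total, on a log axis, with exact 95% Poisson intervals; circles are the WT NOD library, squares the library labelled NOD.Cxcl16-/-, and open symbols stand for 0 UMIs. Among gates with at least 30 cells in both libraries, migratory dendritic cells lead both panels (60 and 28 CPM of Il15, 46.9 and 40.4 CPM of Il15ra). Ly6c2 monocytes, 8 and 9 cells, had 50 and 31.6 CPM of Il15, while Il15 in CD8 T cells is at 0.061 and 0.248 CPM.

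Of the chains that receive interleukin-15, Il2rb was led by lymphocytes, and Il2rg was found in lymphoid and myeloid gates alike. Il2rb, the signalling chain shared with interleukin-2, was highest in NK cells at 409 and 529 CPM. Il2rg, the common gamma chain, was highest in ILC2 at 343 and 387 CPM, and stood at 147 and 159 CPM in migratory dendritic cells beside 139 and 165 CPM in CD8 T cells. Il2ra, the high-affinity interleukin-2 chain, was also highest in ILC2 (137 and 171 CPM), with regulatory T cells at 97.1 and 86 CPM. Crlf2, which pairs with the Il7r product to bind the cytokine TSLP, was highest in CD8 cells with Entpd1 or Havcr2, at 139 and 120 CPM, where Il7r itself was low. The ligands Il7 and Tslp were near absent from these sorted leukocytes: the highest gate level of Il7 was 3.11 CPM (5 UMIs, the migratory dendritic gate in the library labelled NOD.Cxcl16-/-) and that of Tslp 2.98 CPM (2 UMIs, macrophages of the WT NOD library). By the mean of both libraries Il2 was highest in CD4 cells with Il21 or Cxcr5, at 46.8 and 30 CPM, ahead of CD4 cells with Tnfsf8 or Nrn1 at 17.1 and 36.6 CPM, which were higher in the library labelled NOD.Cxcl16-/-. Il21 was highest there too (324 and 273 CPM), which its use in that gate fixes.

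Bcl2 (ENSMUSG00000057329) spans chr1:106538178-106714274 on the minus strand, 176 kb with 2 exons and an intron of 169 kb. The locus overlaps D630008O14Rik on the opposite strand and Mir3473f and Gm37053 on the same strand, and whether reads from introns were counted is not given in the sources used here. Levels of Bcl2 were highest in NK cells, at 242 CPM (204 to 285) and 253 CPM (213 to 299), apart above 25 gates. Naive-like CD8 cells had 171 and 233 CPM and gamma-delta T cells 151 and 185 CPM, apart above 23 and 22 gates but not from each other. Naive-like CD4 cells had 163 and 114 CPM, Ccl5-high CD8 cells 110 and 159 CPM, and B cells 107 and 77.7 CPM.

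Along the CD8 gates Bcl2, like Il7r, was higher in the naive-like and Ccl5-high cells than in 3 other CD8 gates. CD8 cells with Xcl1 or Cd160 had 74.6 and 97.1 CPM, those with Entpd1 or Havcr2 58.3 and 73.2 CPM, and cycling CD8 cells 31.5 and 40.1 CPM. Regulatory T cells were low as well, at 40.4 and 40.5 CPM. Among the lowest were myeloid gates. Migratory dendritic cells had 8.69 and 5.6 CPM, cDC1 8.35 and 8.9 CPM, and myeloid cells with Ifitm3 and Cfp 11 and 9.36 CPM. Across the 28 gates Bcl2 and Il7r had a Pearson correlation of 0.65 and Bcl2 and Il15 one of -0.72.

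Mcl1 (ENSMUSG00000038612), a compact gene of 4.39 kb with 4 exons on the plus strand of chr3:95658788-95663176, was instead led by myeloid gates, though not by all of them. Its product is a short-lived protector that many leukocytes require. The highest level was in the few monocytes with Ly6c2 (1326 and 1170 CPM, 8 and 9 cells), apart from all other gates. It was followed by cDC2 (864 and 784 CPM), myeloid cells with Ifitm3 and Cfp (868 and 693 CPM), migratory dendritic cells (833 and 688 CPM), monocytes with Treml4 or Ace (677 and 804 CPM) and macrophages (783 and 669 CPM). Neighbours in this order were not apart. Naive-like CD4 cells had 633 and 779 CPM and naive-like CD8 cells 551 and 606 CPM, B cells 515 and 467 CPM, and NK cells 426 and 354 CPM. Lower than both naive-like gates were cDC1 (500 and 543 CPM) and pDC (472 and 420 CPM). In the library labelled NOD.Cxcl16-/-, naive-like CD4 cells were above migratory dendritic cells, macrophages and myeloid cells with Ifitm3 and Cfp. Cycling CD8 cells were lowest at 267 and 266 CPM. Outside the Ly6c2 monocytes the gate levels ran from 266 to 868 CPM, and no gate lacked the transcript.

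Bcl2l11 (ENSMUSG00000027381), with 5 exons on the plus strand of chr2:128126038-128162547, encodes the BH3-only death activator BIM. Its promoter is shown because forkhead factors of the FOXO group, which cytokine signals keep out of the nucleus, are known activators of the gene. The RefSeq window of the first start is chr2:128125788-128126087 on the plus strand, with the matches to GTAAACA (forkhead) and, on the reverse strand, to AANNGAAA (TTTCACTT) in capitals.
Bcl2l11: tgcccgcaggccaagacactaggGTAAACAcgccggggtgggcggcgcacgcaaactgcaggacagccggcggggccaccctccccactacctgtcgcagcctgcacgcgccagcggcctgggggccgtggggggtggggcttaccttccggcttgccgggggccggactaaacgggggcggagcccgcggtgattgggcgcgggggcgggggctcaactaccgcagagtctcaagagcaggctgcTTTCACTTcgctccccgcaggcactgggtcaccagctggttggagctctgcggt
The matches begin 227 and 4 bases before the start. The forkhead letters occurred in 3.65% of all windows. None of the 3 motifs was found in the windows of Bcl2 and Mcl1 or in the second window of Bcl2l11, which says only that these letters are not in those 300 bases.

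Bcl2l11, like Bcl2, was highest in NK cells, at 288 CPM (246 to 335) and 286 CPM (243 to 335), apart above 25 gates. ILC2 had 245 and 197 CPM, gamma-delta T cells 189 and 170 CPM, and migratory dendritic cells 204 and 124 CPM. The 3 innate-like lymphocyte gates thus combined high Bcl2l11 with very different Il7r, from 950 and 907 CPM in ILC2 to 126 and 77.1 CPM in NK cells. B cells had 92 and 112 CPM, naive-like CD4 cells 95.8 and 105 CPM and naive-like CD8 cells 85.8 and 86.1 CPM. The lowest gates were CD4 cycling cells (30 and 18.5 CPM), CD8 cycling cells (27.1 and 32.7 CPM) and CD4 cells with Il21 or Cxcr5 (27.2 and 35.6 CPM). As CPM of the gate total, cycling T cells were thus low in Bcl2l11, and cycling CD8 cells (31.5 and 40.1 CPM) also in Bcl2. Cycling CD4 cells had 47.9 and 55 CPM of Bcl2, above regulatory T cells and the myeloid gates. Before thinning, 35.1% and 37.9% of cycling CD8 cells had a Bcl2 UMI, against 30.8% and 40.3% of Ccl5-high ones. The part of the greater depth of cycling cells in these levels was not tested.

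**Figure D3:**
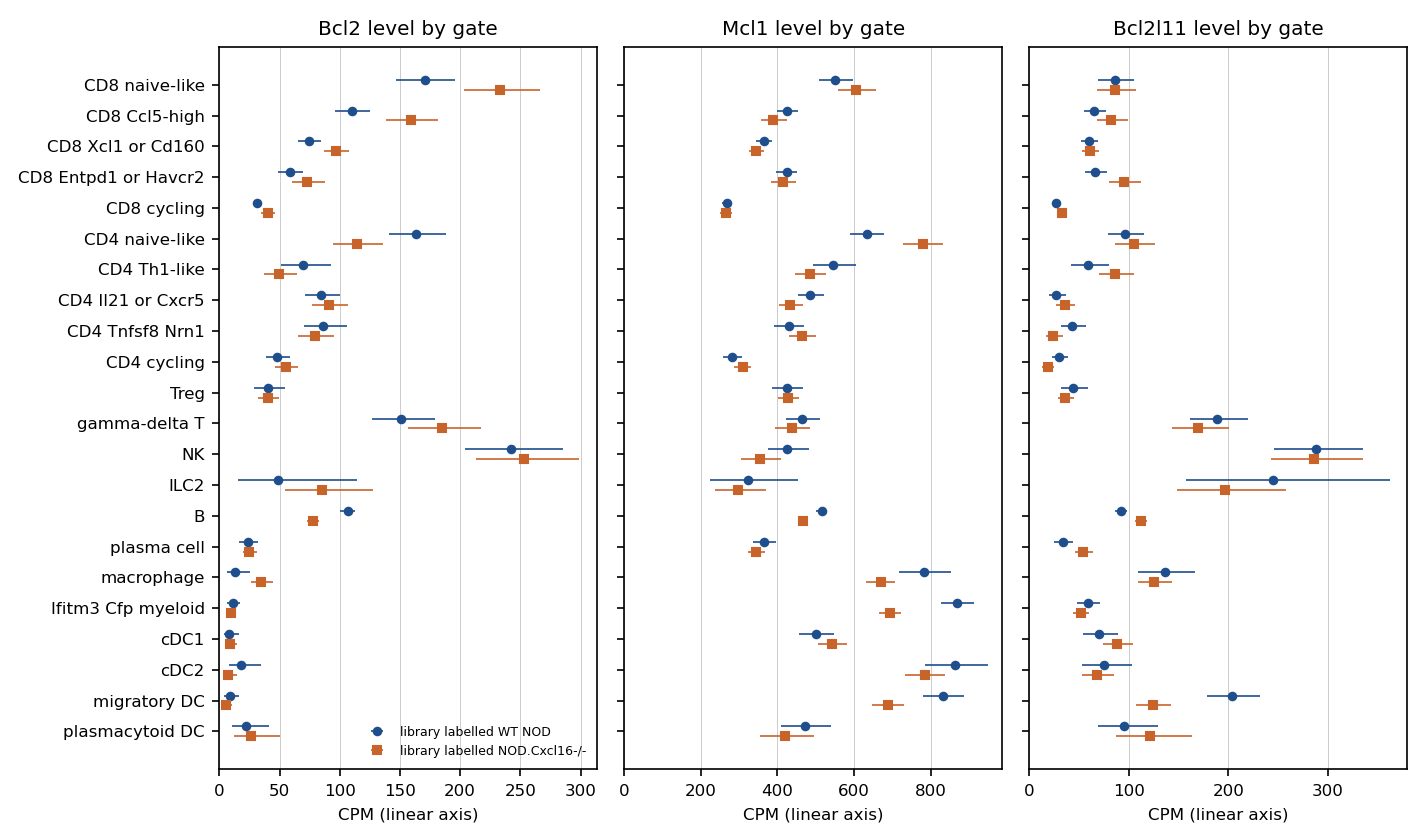
Bcl2 (left), Mcl1 (middle) and Bcl2l11 (right) levels as CPM of the gate total, on linear axes that differ between panels, with exact 95% Poisson intervals; circles are the WT NOD library and squares the library labelled NOD.Cxcl16-/-. NK cells lead Bcl2 (242 and 253 CPM) and Bcl2l11 (288 and 286 CPM), and myeloid gates lead Mcl1 (cDC2: 864 and 784 CPM).

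The ratio of Bcl2 to Bcl2l11 UMIs is read here only as an order of gates, because capture differs between genes. It was high in CD4 cells with Il21 or Cxcr5, at 3.12 (2.2 to 4.5) and 2.57 (1.88 to 3.54), in CD4 cells with Tnfsf8 or Nrn1, at 2 and 3.25, and in naive-like CD8 cells, at 1.99 and 2.7. NK cells, with the highest level of both genes, had 0.84 and 0.885, gamma-delta T cells 0.8 and 1.09, and ILC2 0.2 and 0.434. Migratory dendritic cells were at the other end with 0.0426 (0.0201 to 0.0797) and 0.0452 (0.0204 to 0.0876), and macrophages had 0.0989 and 0.275. Monocytes with Ly6c2 held 0 Bcl2 UMIs against 15 and 17 of Bcl2l11. B cells differed between the libraries, at 1.16 (1.05 to 1.27) and 0.694 (0.638 to 0.755), with intervals that did not overlap. In that gate Bcl2 was lower and Bcl2l11 higher in the library labelled NOD.Cxcl16-/-.

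Mcl1 UMIs outnumbered those of Bcl2l11 in every gate, with a ratio lowest in the innate-like lymphocytes. It was 1.48 and 1.24 in NK cells, 1.32 and 1.51 in ILC2, and 2.46 and 2.57 in gamma-delta T cells. Migratory dendritic cells had 4.08 and 5.56, myeloid cells with Ifitm3 and Cfp 14.7 and 13.4, and CD4 cells with Il21 or Cxcr5 17.9 and 12.2. The ratio of Bcl2 to Mcl1 UMIs ran from 0.568 and 0.715 in NK cells to 0.0104 and 0.00814 in migratory dendritic cells, apart from the Ly6c2 monocytes, which held 0 Bcl2 UMIs against 106 and 111 of Mcl1.

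**Figure D4:**
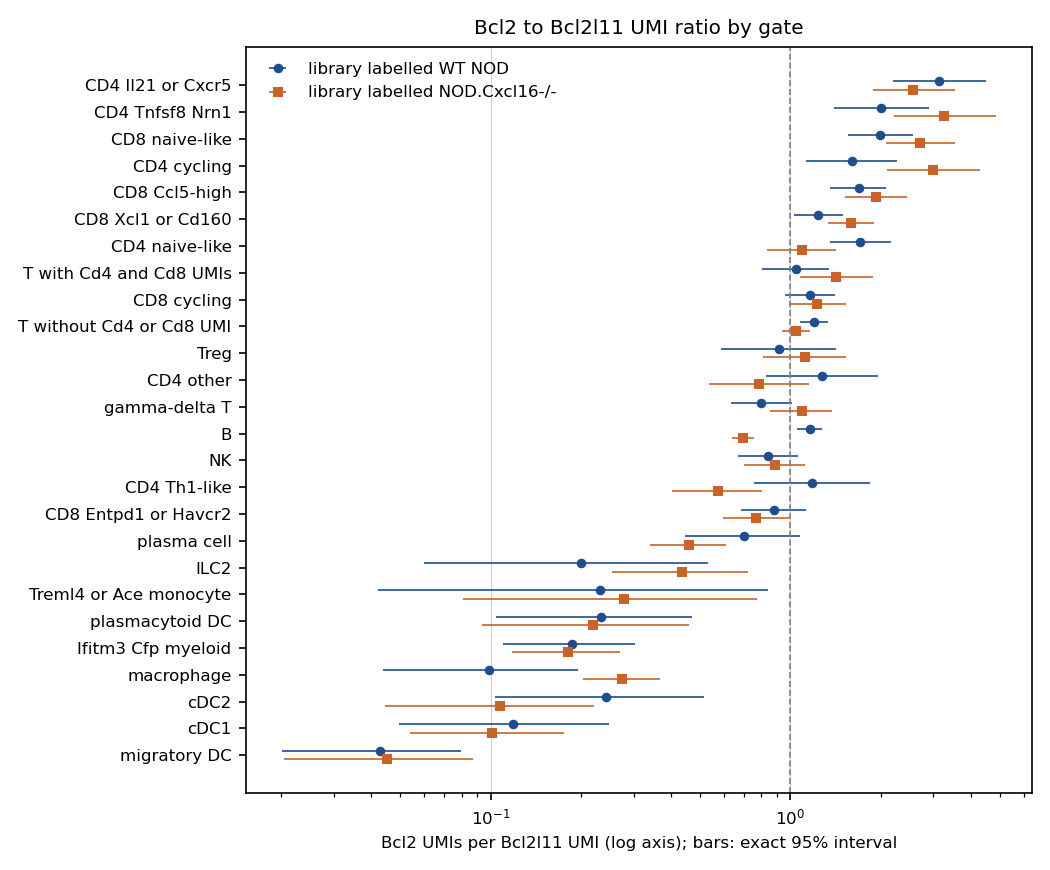
Bcl2 UMIs per Bcl2l11 UMI in each gate, on a log axis, with exact 95% intervals; circles are the WT NOD library, squares the library labelled NOD.Cxcl16-/-, and the dashed line marks equal UMIs. Gates are ordered by the mean log ratio, without Ly6c2 monocytes and CD8 cells with no further marker. CD4 cells with Il21 or Cxcr5 come first by that mean (3.12 and 2.57), although CD4 cells with Tnfsf8 or Nrn1 are higher in 1 library (2 and 3.25), and migratory dendritic cells come last (0.0426 and 0.0452).

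Within CD8 T cells, Bcl2 was higher in the cells that carried Il7r. At 2000 UMIs per cell, the 312 CD8 cells with an Il7r UMI in the WT NOD library had 155 CPM of Bcl2 and the 1515 without had 63.7 CPM, a ratio of 2.44 (1.89 to 3.13). In the library labelled NOD.Cxcl16-/- the levels were 231 and 79.6 CPM in 296 and 1061 cells, a ratio of 2.91 (2.3 to 3.66). Mcl1 differed less, with ratios of 1.26 and 1.29, and Bcl2l11 had 1.36 (0.96 to 1.9) and 1.5 (1.1 to 2.03). Klf2, a factor of quiescent T cells, differed as much as Bcl2, with ratios of 2.52 and 2.39, and Il2rb had 0.861 and 0.878.

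The difference in Bcl2 was also present inside single CD8 gates. In naive-like CD8 cells the ratio was 1.79 (1.1 to 2.9) and 2.24 (1.39 to 3.67). In Ccl5-high CD8 cells it was 1.61 (1.01 to 2.53) and 3.45 (2.11 to 5.76). In those with Xcl1 or Cd160 it was 1.94 (1.04 to 3.44) and 1.69 (1.04 to 2.67), so several lower bounds lay close to 1. In those with Entpd1 or Havcr2 it was 2.07 (0.398 to 6.86) and 1.9 (0.638 to 4.71), with intervals that include 1. Klf2 had 0.941 and 1.17 in the naive-like gate but differed in the other 3, with 2.16 and 2.13 in Ccl5-high cells, 1.99 and 1.69 in those with Xcl1 or Cd160, and 6.11 and 2.57 in those with Entpd1 or Havcr2. In CD4 T cells the Bcl2 ratio was smaller, at 1.31 (0.977 to 1.74) and 1.46 (1.09 to 1.94). In gamma-delta T cells it was 1.11 (0.658 to 1.9) and 0.593 (0.356 to 0.981), so cells with and without an Il7r UMI did not differ in the same direction there. Cells without a UMI at this depth include cells that express the gene.

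The comparison between the libraries covered 24 gates with at least 30 cells in each and, for a member in a gate, at least 20 UMIs over both. Log2 ratios divide the level in the library labelled NOD.Cxcl16-/- by that in the WT NOD one, with 1 CPM added to each, and their intervals are those of the ratio of UMIs scaled to the gate totals. Of 109 pairs of a member and a gate, 19 (17.4%) differed at least 1.5-fold, 9 higher and 10 lower in the library labelled NOD.Cxcl16-/-. Over all genes the same share was 14.8% of 193486 pairs, with 8.10% higher and 6.71% lower, so the members' share lies near that of genes in general. By member, the counts were 4 of 23 gates for Il7r, 3 of 4 for Il15, 5 of 14 for Il15ra, 2 of 21 for Bcl2, 0 of 24 for Mcl1 and 5 of 23 for Bcl2l11. Il15 and Il15ra had the fewest UMIs of the members. Counting intervals include 0 for Il15 in plasma cells (-0.35 to 2.89) and cDC1 (-0.20 to 2.07), and exclude it in migratory dendritic cells. For Il15ra they include 0 in macrophages, myeloid cells with Ifitm3 and Cfp, and CD4 cells with Tnfsf8 or Nrn1. They exclude it in cycling CD8 cells and B cells. The share over all genes was not matched for UMI count. Mcl1 ratios ran from -0.33 in myeloid cells with Ifitm3 and Cfp to 0.30 in naive-like CD4 cells.

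In all CD8 T cells, 2026 and 1396 cells, Il7r was at 98.6 and 128 CPM (log2 ratio 0.37, 0.27 to 0.48) and Bcl2 at 64.5 and 88.2 CPM (0.45, 0.33 to 0.58). Bcl2l11 was at 48 and 58.5 CPM (0.28, 0.14 to 0.43), Il15ra at 9.77 and 9.35 CPM (-0.06, -0.42 to 0.29), and Mcl1 at 349 CPM in both (0.00, -0.06 to 0.06). None of these 5 members reached 1.5-fold, against 4.76% of all genes in this gate (2.54% higher and 2.22% lower). The median log2 ratio of the members was 0.28, beside 0.03 over all genes. Over the 6 CD8 gates, Il7r and Bcl2 were each higher in the library labelled NOD.Cxcl16-/- in 5. The exceptions were cycling cells for Il7r (-0.11) and cells with no further marker for Bcl2 (-0.64, from 17 and 9 UMIs). Bcl2l11 was close to equal in naive-like cells (0.01) and in those with Xcl1 or Cd160 (0.02) and higher in the other 4, of which cells with no further marker had 4 and 9 UMIs. Cycling cells, low in CPM of Il7r and Bcl2, were 405 of the 2026 and 243 of the 1396 cells, and CD8 cells had medians of 5480 and 5928.5 UMIs. Pooled levels weigh cells by their UMIs. Cycling CD8 cells were 3.78% and 2.61% of all kept cells but held 10.6% and 5.78% of all UMIs, the largest share of any CD8 gate. Their part in the pooled ratios was not tested. In CD4 T cells other than regulatory ones, 0 of 5 members reached 1.5-fold, against 6.08% of all genes (2.21% higher and 3.87% lower). Il7r had a ratio of 0.16 (0.07 to 0.26) and Bcl2 one of -0.17 (-0.34 to -0.01).

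In macrophages, 54 and 133 cells, 3 of 6 members passed 1.5-fold, against 22.5% of all genes (12.0% higher and 10.5% lower). Il7r was at 22.4 and 62.1 CPM (15 and 108 UMIs, log2 ratio 1.43, 0.69 to 2.36) and Bcl2 at 13.4 and 34.5 CPM (9 and 60 UMIs, 1.30, 0.34 to 2.56). Il15ra was at 26.9 and 17.3 CPM (-0.61, -1.53 to 0.29), and Il15 at 19.4 and 23 CPM (0.24, -0.69 to 1.27), both with intervals that include 0. Summed T markers were at 29.8 and 49.5 CPM and B markers at 50.7 and 29.9 CPM in this gate, and UMIs of Mki67 or Top2a were in 55.6% and 48.1% of its cells. The part of T-cell transcripts in the Il7r and Bcl2 ratios was not tested. When every cell was thinned to 2000 UMIs, the Il15ra ratio was 0.94, so its direction depends on this setting.

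In migratory dendritic cells, 2 of 5 members were lower in the library labelled NOD.Cxcl16-/-, against 19.1% of all genes (9.87% higher and 9.24% lower). Il15 was at 60 and 28 CPM (-1.07, -1.67 to -0.54) and Bcl2l11 at 204 and 124 CPM (-0.72, -1.00 to -0.44), and Il15ra did not differ beyond counting error (-0.21, -0.76 to 0.33). Without the cells that had a UMI of Mki67 or Top2a (39.1% and 36.4% of this gate), the Bcl2l11 ratio was -0.19.

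**Figure D5:**
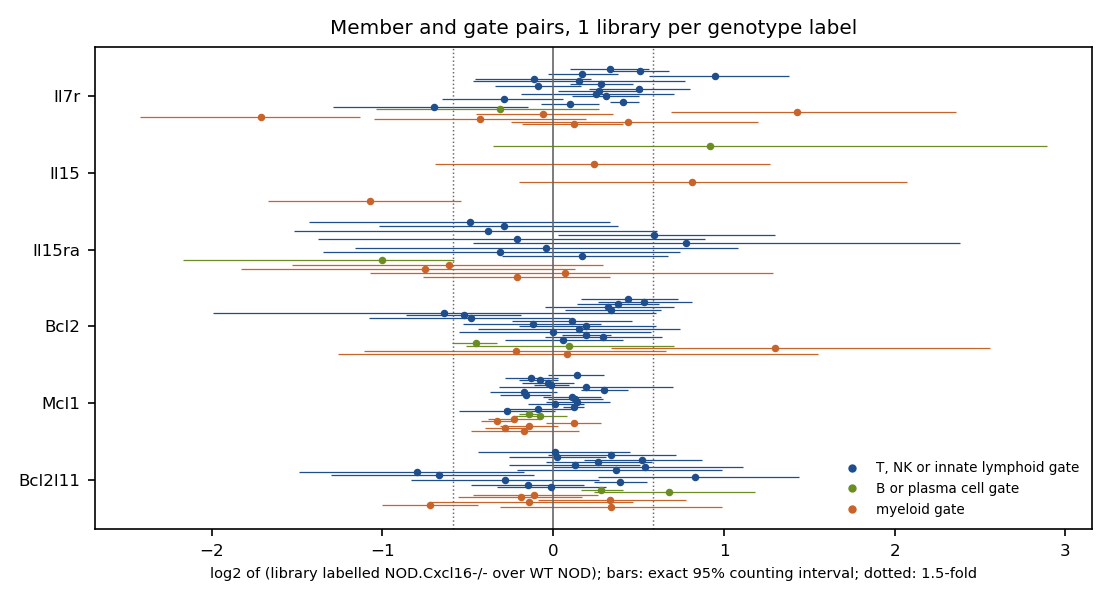
Log2 ratios between the libraries (the one labelled NOD.Cxcl16-/- divided by WT NOD) for each of 109 pairs of a member and a gate, coloured by lineage, with exact 95% counting intervals; dotted lines mark 1.5-fold. All 24 Mcl1 points lie between -0.33 and 0.30, while Il7r points reach from -1.71 in cDC1 to 1.43 in macrophages.

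A list of 38 further genes of the pathway was read in the same way. In CD8 T cells 33 had at least 20 UMIs, and 1 of them passed 1.5-fold: Socs2, a STAT5-induced feedback inhibitor, at 4.52 and 11.3 CPM (74 and 137 UMIs, log2 ratio 1.16, 0.91 to 1.76). Of these UMIs, 35 and 111 were in cycling CD8 cells. Over all genes 4.76% passed 1.5-fold in CD8 T cells (2.54% higher and 2.22% lower). The list's median ratio was 0.06 beside 0.03 over all genes. In macrophages 24 were measured, with 3 higher and 3 lower and a median of -0.20 beside -0.02. Over all genes 22.5% passed 1.5-fold in that gate (12.0% higher and 10.5% lower), so the list's share lies near that of genes in general. The higher ones were the signalling factor Stat5a (4.48 and 10.9 CPM), the ETS factor Gabpa (7.46 and 14.4 CPM) and the protector Bcl2l1 (13.4 and 29.9 CPM). Stat5a had 3 and 19 UMIs (log2 ratio 1.12, -0.48 to 3.69) and Gabpa 5 and 25 (0.86, -0.46 to 2.69), with intervals that include 0. Bcl2l1 had 9 and 52 UMIs (1.10, 0.12 to 2.36). The lower ones were Il2rg (151 and 90.9 CPM) and the inhibitors Socs1 (86.5 and 54.7 CPM) and Socs2 (25.4 and 5.75 CPM, 17 and 10 UMIs). Their counting intervals exclude 0.

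The genes whose profile over the 28 gates was most like that of each member were taken from 9266 genes of at least 20 CPM in a gate. For Il7r they were Slc9a9 (r = 0.88), 4921511C10Rik (0.87) and Cpeb1 (0.87), and for Il15 they were Il6 (0.92), Ftl1-ps1 (0.88) and Tubb6 (0.88). Il15ra had weaker matches in Pfkfb3 (0.75), Lilr4b (0.73) and Id2 (0.73). Within the WT NOD library and the other these were lower, at 0.54 and 0.52, 0.71 and 0.47, and 0.57 and 0.63. Bcl2 was closest to Hif1an (0.92), Ubr1 (0.92) and Zfp292 (0.91), Mcl1 to the interferon-induced genes Zbp1 (0.91) and Oasl2 (0.90) and to Cd274 (0.87), and Bcl2l11 to Rreb1 (0.83), Fbxo30 (0.82) and Irak2 (0.80). Fbxo30 had 0.74 and 0.53 within the single libraries. Values of r are Pearson correlations of log2(CPM + 1), over gates that share libraries and depth. Unless single libraries are named, the profile is the mean of both.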

How the data were processed

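The authors deposited unnormalised UMI counts, 1 whole number for each gene in each barcode. They were made with Cell Ranger 7.0.1 on mm10, per the submitters' processing notes. Barcodes with under 500 genes or over 10% mitochondrial UMIs were left out, as were the highest-scoring simulated-doublet matches at 0.8% per 1000 barcodes (1537 and 891). Gates were set by UMIs of fixed marker genes, of which 1, used in the naive-like gates, is not reported here. Summed UMIs were scaled to CPM of the gate total. T and B gates needed 0.05% of UMIs from their markers and plasma cells 0.5%. Poisson, Clopper-Pearson and conditional ratio intervals (95%) were computed with Python 3.11.15, numpy 2.4.6, scipy 1.17.1 and pandas 2.3.3, and the clustering alternative with scanpy 1.11.5 and leidenalg 0.10.2. The ratio calculation was run on simulated Poisson counts with set fold changes. These hold no spread between cells or animals, so they check the arithmetic only.

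The members, gene lists and markers were chosen with earlier results of these data known. The genes named were all 6 members, the 3 genes most like each in profile, pathway genes past 1.5-fold with at least 20 UMIs in CD8 T cells or macrophages (at most 10 per gate), and the top gate of each ligand and receptor chain. Alternatives changed the cell filters, doublet removal, scaling, depth, pseudocount, cell assignment, cycling cells and marker minimums. A T and B marker share of 0.1% and a minimum of 2000 UMIs per barcode were added after seeing the data. Of the gene IDs, 32158 of 32285 were found in GENCODE M21.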

Additional observations from a re-analysis of the deposited data

Results flagged for a closer look

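For 3 members the libraries differed past 1.5-fold in opposite directions in different gates, with counting intervals that exclude 0 each time. Over all genes 14.8% of pairs of a gene and a gate passed 1.5-fold (8.10% higher and 6.71% lower). How many genes in general do so in opposite directions was not counted, so this is not shown to be particular to the members. Whether gates differ from each other in their ratios was not tested, and each value rests on 1 library per group. For Il7r, the log2 ratio (library labelled NOD.Cxcl16-/- divided by WT NOD) was 0.95 in CD8 cells with Entpd1 or Havcr2 (0.56 to 1.38) and 1.43 in macrophages, but -0.70 in NK cells (-1.29 to -0.15) and -1.71 in cDC1 (-2.42 to -1.13). The cDC1 value rests on 66 and 32 UMIs in 49 and 84 cells, of which 16.3% and 15.5% had any Il7r UMI. For Il15ra it was 0.59 in cycling CD8 cells (0.03 to 1.30) and -1.00 in B cells (-2.17 to -0.58). For Bcl2l11 it was 0.83 in CD4 cells with no further marker (0.26 to 1.44) and 0.68 in plasma cells (0.24 to 1.18), but -0.80 in CD4 cells with Tnfsf8 or Nrn1 (-1.49 to -0.17), -0.67 in cycling CD4 cells (-1.30 to -0.11) and -0.72 in migratory dendritic cells.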

How the results depend on the processing

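No paired analysis was possible because each group has 1 library. In CD8 T cells the log2 ratio ranged over 12 alternatives from 0.27 to 0.42 for Il7r, 0.37 to 0.51 for Bcl2 and 0.16 to 0.42 for Bcl2l11, and none of them took a member past 1.5-fold. Il7r was at 0.27 with classes from clustering (0.37 as reported), and Mcl1 at -0.08 both after thinning to 2000 UMIs and without cells with a UMI of Mki67 or Top2a (0.00 as reported). In macrophages Il15ra was reversed by thinning to 2000 UMIs (0.94 in place of -0.61), and over 10 alternatives Il15 ranged from 0.01 to 0.83. The number of pairs past 1.5-fold was 12 with 5 CPM added and 35 with no minimum on UMIs (19 as reported). Bcl2l11 in plasma cells was at -0.12 as a mean of per-cell CPM (0.68 as reported). Of 1183 other values, 1144 stayed within their counting interval. The cause of these changes was not tested. The clustering gave no macrophage class, and leaving out cycling cells left under 30 macrophages in the WT NOD library, so neither gave a value there. The gate with the highest level, among those with at least 30 cells per library, was the same in 10 of 10 alternatives for Il7r, Il15, Bcl2 and Bcl2l11, in 9 for Il15ra and in 7 for Mcl1. Depth limits Il15 most, with 285 and 451 UMIs in all.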

Other observations

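Among further genes of the pathway, Cish, a STAT5-induced feedback gene, was highest in ILC2 (137 and 141 CPM in the WT NOD library and the one labelled NOD.Cxcl16-/-). That gate was also highest in Il7r, Il2rg and Il2ra. Between cells with and without an Il7r UMI, the Cish ratio was 0.286 (0.057 to 0.883) and 0.956 (0.46 to 1.84) in CD8 T cells. It was 0.588 and 0.672 in CD4 T cells and 1.11 and 1.78 in ILC2, with intervals that include 1. Whether Cish follows Il7r was not tested. Socs2 was at 289 and 179 CPM in migratory dendritic cells, at 98 and 182 CPM in ILC2 and at 78.9 and 85.1 CPM in regulatory T cells, against 4.52 and 11.3 CPM in CD8 T cells. Bcl2l1, which encodes the protector BCL-XL, was at 70.2 and 71.1 CPM in regulatory T cells, where Bcl2 was low (40.4 and 40.5 CPM), and at 3.64 and 5.6 CPM in B cells. Pmaip1, which encodes NOXA, an antagonist of MCL1, was at 243 and 259 CPM in migratory dendritic cells. These genes were chosen after their values were seen.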
